A study of Gallus gallus with 89 samples.

Results

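The expression of ribosomal protein genes was followed in 89 individual cells from chick amniogenic somatopleure, a sheet with an ectodermal and a mesodermal layer from which the amnion forms. The members were the rows of the deposited count table whose symbols name a protein of the cytoplasmic ribosome (RPS or RPL and a number, or RPLP0, RPLP1 and RPLP2), without the RPS6 kinases. This gave 69 of 13823 gene rows (0.499%), 26 of the small and 43 of the large subunit. RPL10 and RPSA are not analysed here, and FAU and RPL36AL, which also encode ribosomal proteins, fell outside the naming rule.

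All cells were from wild-type, untreated embryos at embryonic day 1.5 (stage 10), and the labels give no strain and no sex. Tissue with both layers came from a pool of more than 15 embryos and was dissociated with trypsin, strained and captured on a microfluidic array made for small cells. The pool is 1 sample. No test, p-value or standard error was therefore computed, and every SD is over cells. Intervals are at 95% by the exact Clopper-Pearson method. Those on reads cover counting error only and take reads, which were counted without molecular identifiers, as independent. Those on detection cover only the drawing of cells from this 1 pool, taken as independent draws. Neither kind covers the spread between embryos.

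Each cytoplasmic ribosome joins a small subunit, which reads the mRNA, to a large subunit, which forms the peptide bond. Most of its proteins are present in a single copy. The mRNAs of vertebrate ribosomal proteins are abundant, and most begin with a pyrimidine tract through which growth signals set their translation together. Expression of these genes is generally high in growing embryonic cells.

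Levels are given as CPM, reads scaled to a fixed total of gene reads per cell, leaving out 3 rows of added RNA named Spike1, Spike4 and Spike7. Detection meant a level of at least 10 CPM with 1 read or more. CPM is not corrected for mRNA length, which was not used here, so the order of read levels is not an order of transcript numbers. Gene reads ran from 328645 to 2381723 per cell (median 1464140), and genes with a read from 2394 to 9015. By the prefix in their titles, 58 cells were X09 and 31 were X29. The labels do not explain the prefixes, and comparisons are shown within each. In 4 X29 cells, over 25% of gene reads lay on mitochondrially encoded genes (26.3 to 41.4%), and results were also computed without them.

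Ribosomal protein genes took 6.69 ± 1.47% of a cell's gene reads (mean ± SD, n = 89 cells). The lowest cell had 3.30%, the median cell 6.49% and the highest 10.5%. Summed over all cells they took 8760911 of 132345319 gene reads, or 6.62% (interval 6.616 to 6.624%). X09 cells had 6.84 ± 1.44% and X29 cells 6.42 ± 1.502%, and the ranges overlapped over most of their length. The 4 cells rich in mitochondrial reads lay low, between 4.42 and 5.83%. Their mitochondrial reads count in the total, which by itself lowers the share of all other genes. Without these 4 cells the median cell had 6.71%. With mitochondrially encoded genes left out of the total, the median of all 89 cells was 7.01%.

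Nearly every member was present in nearly every cell. Between 66 and 68 members were detected per cell, and 65 of the 69 were detected in all 89 cells. The exceptions were RPL7L1 (87 cells), RPS27L (76 cells), RPL26 (70 cells) and RPS26 (0 cells). RPS26 encodes a small-subunit protein near the mRNA exit site, and its row held 101 reads in all, spread over 39 cells and reaching at most 5.82 CPM. The count table does not show whether the annotation or the handling of reads with several matches sets so low a count, so the row is no measure of RPS26 mRNA. It was the only member with a mean below 10 CPM, so 68 members entered the counts by the size rule below.

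The spread of reads over the members was similar from cell to cell, although members differed widely in level. Evenness, the Shannon entropy of the members' shares divided by its maximum over 69 genes, was 0.961 ± 0.00638, from 0.924 to 0.970. The 5 members with the highest mean CPM took 15.3 ± 1.55% of ribosomal protein reads. Small-subunit genes took 35.0 ± 1.51% of them, with a narrow range of 31.3 to 39.04%. The 4 lowest evenness values included 3 of the 4 cells rich in mitochondrial reads, and those 4 cells ran from 0.924 to 0.951.

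**Figure D1:**
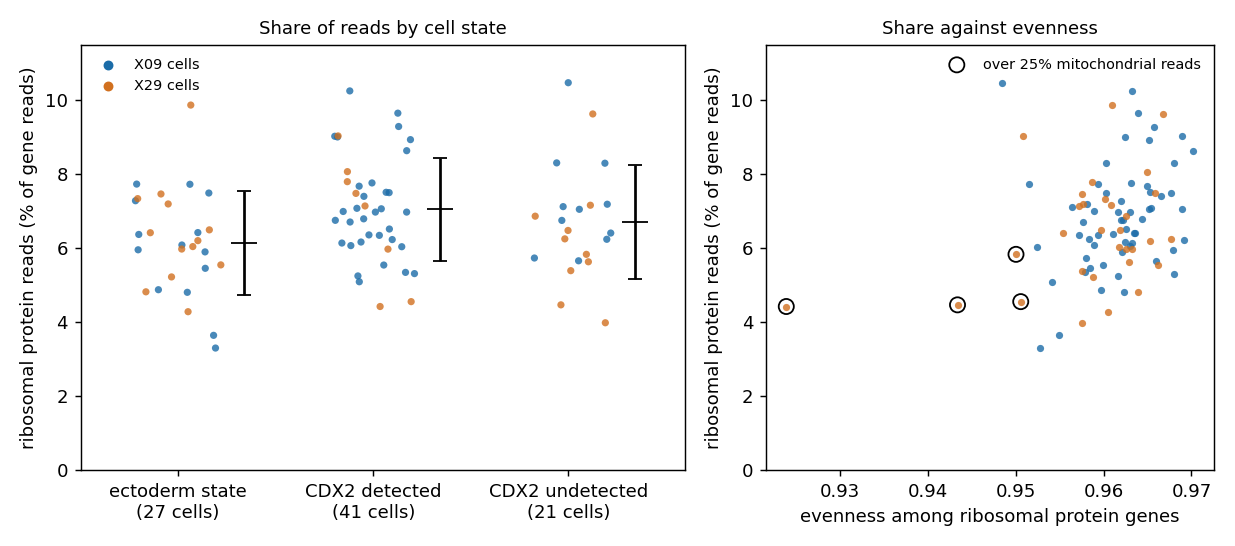
The left panel plots the share of gene reads on the 69 ribosomal protein genes (vertical axis, %) in each cell, by cell state, with X09 cells in blue, X29 cells in orange and the mean ± SD over cells in black. The right panel plots the same share against evenness among the members (no unit). The states overlap widely, and the 4 circled cells with over 25% mitochondrial reads have shares of 4.42 to 5.83% and evenness of 0.951 or less.

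The 10 members with the highest mean read level included RPL21, RPL8, RPS2, RPL19, RPL5, RPL4, RPS6, RPS3A and RPL32. RPL21 led with 2290 ± 728 CPM, and RPL8, a protein close to the peptidyl transferase centre, had 2203 ± 714 CPM. RPS2 had 2125 ± 685 CPM. Their ranges over cells (866 to 5297, 753 to 4808 and 760 to 3931 CPM) overlapped almost wholly, so the differences among the leading members were smaller than the spread between cells. The lowest of the 10, RPL32, had 1508 ± 428 CPM.

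The members with known special roles that follow ranged from RPL5, among the 10 highest, to RPL11. RPL5 and RPL11 form with 5S rRNA the particle that binds the p53 regulator MDM2, and they had 1759 ± 492 and 556 ± 178 CPM. RPL3, of the peptidyl transferase centre, had 1179 ± 386 CPM, and RPL39, a small protein of the exit tunnel, 1350 ± 560 CPM. RPL38, which mouse mutants link to translation of Hox mRNAs, had 801 ± 263 CPM and was detected in every cell. RPS27A, made as a fusion with ubiquitin, had 1445 ± 444 CPM. The stalk proteins RPLP0, RPLP1 and RPLP2, which recruit translation factors, lay close together at 1060 ± 372, 925 ± 299 and 964 ± 306 CPM.

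At the low end, RPS26 had 0.710 CPM, RPS27L 81.8 ± 72.8 CPM, RPL26 113 ± 85.6 CPM, RPS28 130 ± 65.6 CPM and RPS19 333 ± 122 CPM. RPS26, with few reads in any cell, had a coefficient of variation over cells of 1.54. Among the other 68 members it was highest in RPS27L (0.890) and RPL26 (0.758), then in RPS28 (0.506), RPL7L1 (0.505) and RPS6 (0.473). It was lowest in RPL24 (0.248) and RPL19 (0.260). RPS27L, RPL26 and RPS28 were thus also among the lowest members by level, while RPS6 was among the 10 highest. The part of counting error in this variation was not tested.

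**Figure D2:**
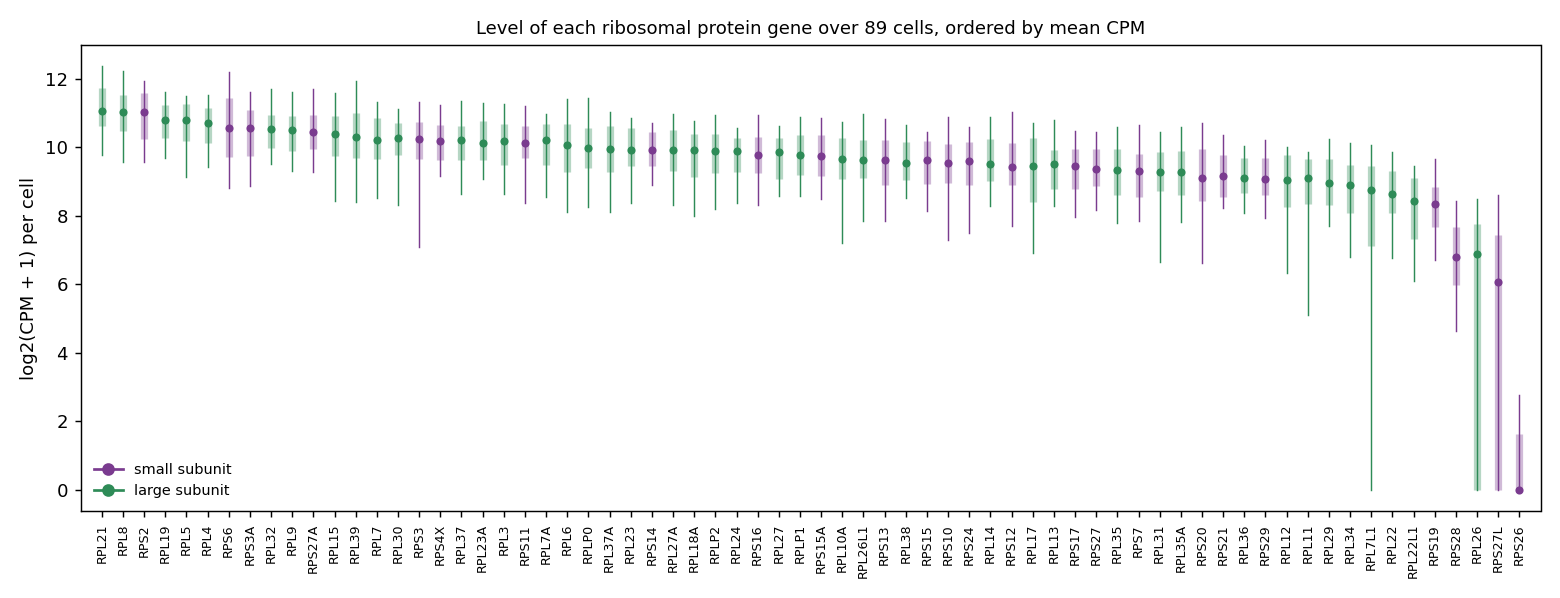
Each vertical line gives 1 of 68 ribosomal protein genes over 89 cells as log2(CPM + 1), from the lowest to the highest cell, with the middle 80% of cells as a broad band and the median as a point, in purple for the small and green for the large subunit. Genes are ordered by mean CPM, from RPL21 (2290) to RPS26 (0.710). The lines of RPL7L1, RPL26, RPS27L and RPS26 reach 0.

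The table held 4 pairs of a ribosomal protein gene and a paralog named after it. RPL22L1 took 44.4 ± 10.8% of the reads of its pair with RPL22 (lowest cell 17.5%, highest 68.9%), with 350 ± 148 against 429 ± 160 CPM. In mouse and zebrafish the pair is known for opposing roles in blood formation. RPL7L1 took 25.7 ± 10.9% of the pair with RPL7 (442 ± 224 against 1262 ± 406 CPM). RPS27L, a p53 target in human cells, took 9.86 ± 7.34% of the pair with RPS27 (709 ± 212 CPM). In the fourth pair the paralog led, as RPL26L1 (837 ± 277 CPM) took 88.5 ± 9.02% of the reads of its pair with RPL26. Reads from near-identical stretches can be counted to either row of a pair, so these splits are uncertain.

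Members tended to be high together. Over the 89 cells the median Spearman rho between 2 members, among 2278 pairs of the 68, was 0.446, and 98.7% of pairs were positive. Among the 68 mitochondrial ribosomal protein genes with a mean of 10 CPM or more it was 0.0629, and among 258 other genes with a mean of 500 CPM or more it was 0.0416. All these genes share each cell's total, and no p is given. Small-subunit pairs had a median of 0.482 and large-subunit pairs 0.427. RPL29, RPS27, RPS15A and RPLP2 each reached 0.734 or more with RPS29. At the other end, RPL3 with RPL26 gave -0.223.

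Outside the members, the genes most like the summed ribosomal protein level, of 3423 detected in at least 50% of cells, were RPL36AL (rho 0.795), NME2 (0.766) and FAU (0.705). RPL36AL and FAU encode ribosomal proteins that the naming rule left out, and NME2 encodes a nucleoside diphosphate kinase. The spliceosome core genes SNRPD1 (0.672) and SNRPG (0.634), the elongation factor EEF1A1 (0.627) and the mitochondrial genes COX6C (0.646), UQCRH (0.607) and ROMO1 (0.606) were also among the 10 nearest. The median gene stood at -0.0139. The lowest value was that of LAPTM4A (-0.521), a lysosomal membrane protein, followed by HSPA8 (-0.420), a constitutive chaperone.

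Cells were then compared by state. A cell was put in the ectoderm state where at least 2 of CDH1, TFAP2A and CLDN3 were detected, which held for 27 cells (14 X09, 13 X29). These are E-cadherin, a surface ectoderm transcription factor and a tight-junction protein. EPCAM, another epithelial marker, was detected in all 27 cells. Of the lateral plate mesoderm genes, PRRX1 was detected in 18.5% of them but HAND1 in 88.9%. Of the other 62 cells, 41 had CDX2 detected, a caudal homeobox gene, and PRRX1 was detected in 92.7% of these. In the 21 cells with neither, PRRX1 was detected in 80.95%. EPCAM was detected in 41.5% of the 41 and in 52.4% of the 21 cells. Of 10 lateral plate mesoderm markers, the median number detected per cell was 3 in ectoderm-state, 7 in CDX2-detected and 6 in CDX2-undetected cells. A member counted as higher in a group where mean CPM, with 1 CPM added to each mean, was at least 1.5-fold that of the other group with the same direction within X09 and within X29.

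No ribosomal protein gene separated the ectoderm-state cells from the rest. Their share of gene reads was 6.15 ± 1.41% (27 cells; lowest 3.30, median 6.09, highest 9.87%) against 6.93 ± 1.44% in the other 62 (3.98, 6.83 and 10.5%), a ratio of 0.887. The 2 lowest ectoderm-state cells lay below every other cell, and 19 of the 27 lay below the others' median. Within X09 the ratio was 0.832 (5.93 against 7.13%), and within X29 it was 0.988 (6.38 against 6.45%). The 4 X29 cells rich in mitochondrial reads, whose shares were low on a total with those reads, all lay outside the ectoderm state. Without them the ratio over both prefixes was 0.868, and the ratio within X29 was not computed. Per Spike read the ratio of ribosomal protein reads was 0.723 within X09 and 1.28 within X29. All gene reads per Spike read gave 0.841 within X09 and 1.31 within X29, so the turn was not particular to ribosomal protein genes. The 4 cells rich in mitochondrial reads had 0.235 to 0.342 ribosomal protein reads per Spike read, beside a mean of 1.10 over all X29 cells outside the ectoderm state. Mitochondrial reads took 7.06% in ectoderm-state and 5.60% in other cells within X09, but 6.25 and 11.9% within X29. With mitochondrially encoded genes left out of the total, the ratio of shares over both prefixes was 0.874. Within each prefix that ratio was not computed, and the part of mitochondrial reads in the result was not tested further.

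By the size rule, 0 of 68 members were higher in ectoderm-state cells, where 15.5% of the 7651 gene rows with a mean of 10 CPM or more were. Likewise 0 members were higher in the other cells, where 18.5% of rows were. Among the 2025 rows with a mean of 100 CPM or more, nearer to the members' level, the shares were 8.20 and 10.1%. The members' ratios ran from 0.679 to 1.10 with a median of 0.880, beside a median of 0.962 over all 7651 rows. Of the 68, 65 were below 1, and 42 were below 1 within both prefixes.

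RPL12, which sits at the base of the stalk, had the lowest ratio. It had 423 ± 173 CPM in ectoderm-state cells (lowest 191, median 391, highest 939) and 623 ± 221 CPM in the others (79.7, 637 and 1036). The ratio was 0.679, with 0.672 within X09 and 0.717 within X29, and the ranges overlapped. RPS28 was next at 0.699 (99.5 ± 45.5 against 143 ± 68.9 CPM). Both fell short of the 1.5-fold size. RPLP1, of the stalk, was on the other side at 1.10 (987 ± 319 against 898 ± 288 CPM), although within X09 it was 0.971. RPL38 gave 0.931 (762 ± 207 against 818 ± 284 CPM).

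**Figure D3:**
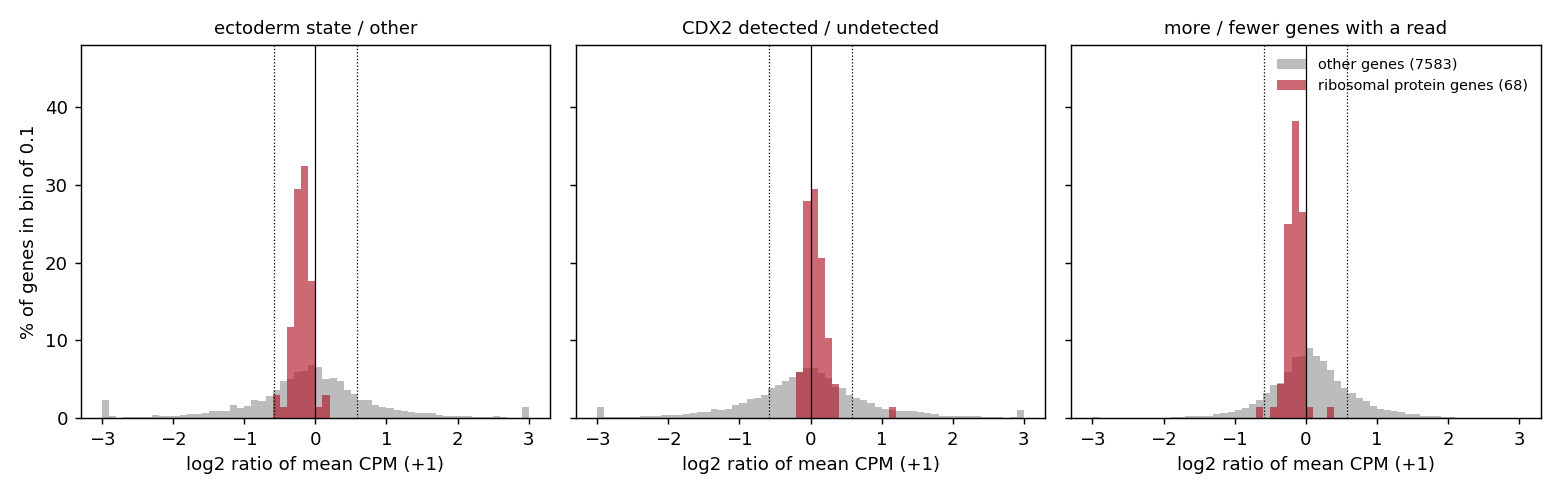
Histograms of the log2 ratio of mean CPM (1 CPM added) for 68 ribosomal protein genes (red) and 7583 other gene rows (grey), each as % of its genes per bin of 0.1, in 3 comparisons; values beyond 3 are drawn at 3, and dotted lines mark 1.5-fold. The members stay within a narrow band, with medians of -0.19, 0.05 and -0.16, while the other genes spread widely, and RPL26 stands alone at the right in the middle panel.

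Outside the ectoderm state, cells with and without CDX2 had close shares of ribosomal protein reads. CDX2-detected cells had 7.05 ± 1.40% (41 cells; lowest 4.42, median 6.98, highest 10.2%) and CDX2-undetected cells 6.71 ± 1.54% (21 cells; 3.98, 6.48 and 10.5%). The ratio was 1.05, with 0.986 within X09 (33 against 11 cells) and 1.10 within X29 (8 against 10 cells), so the prefixes did not share a direction. Per Spike read they did, as the ratio of ribosomal protein reads was 1.25, with 1.19 within X09 and 1.13 within X29. For all gene reads per Spike read it was 1.21, with 1.26 within X09 and 0.958 within X29. Cells with at least 5 of 11 measured endothelial markers, 4 of them CDX2-undetected and 1 CDX2-detected, had shares of 6.43 ± 0.779% (n = 5 cells). The summed level of those markers ran from 0 to 8454 CPM in CDX2-undetected and from 0 to 6954 CPM in CDX2-detected cells. Each of the 11 was detected in some CDX2-undetected cell, and SOX17 alone was detected in no CDX2-detected cell. Without these 5 cells the ratio was 1.04.

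RPL26 alone passed the size rule. It was higher in CDX2-detected cells (1 of 68 members, beside 14.5% of all rows), and 0 members were higher in CDX2-undetected cells (beside 16.8%). Among rows with a mean of 100 CPM or more these shares were 8.64 and 7.26%, so the members' count was below the background on each. The median ratio over members was 1.04 and over all rows 0.974. Apart from RPL26, the largest ratio was 1.26.

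RPL26, a protein of the large subunit near the exit tunnel, had 135 ± 70.8 CPM in CDX2-detected cells (lowest 0, median 130, highest 281) and 62.5 ± 68.4 CPM in CDX2-undetected cells (0, 40.2 and 199). The ratio was 2.14, with 2.20 within X09 and 1.84 within X29. It was detected in 92.7% of the first (38 of 41 cells, interval 80.1 to 98.5%) and in 57.1% of the second (12 of 21, 34.02 to 78.2%). The ranges overlapped, and ectoderm-state cells had 119 ± 103 CPM with detection in 74.1% (20 of 27, 53.7 to 88.9%). The CDX2-undetected cells outside the ectoderm state were thus the low group. CDX2 was detected in only 7 of the 27 ectoderm-state cells (25.9%), so most of those also lacked CDX2 detection. RPL26 was not compared by CDX2 within the ectoderm state. Other cell type markers moved with the CDX2 split. The summed level of the 4 measured neural plate markers had a median of 256 CPM in CDX2-undetected cells (0 to 673) and 22.96 CPM in CDX2-detected cells (0 to 220). For the 8 measured surface ectoderm markers the medians were 2158 CPM (11.04 to 27067) and 10496 CPM (1014 to 18124), beside 11681 CPM in ectoderm-state cells. PAX6 of the neural plate list and GATA3 of the surface ectoderm list were detected in neither CDX2 group, and SOX3 in no CDX2-undetected cell. HAND1, a lateral plate mesoderm transcription factor, was detected in 28.6% of CDX2-undetected, 97.6% of CDX2-detected and 88.9% of ectoderm-state cells. The summed level of all 10 lateral plate mesoderm markers had medians of 1393 CPM (0 to 2843) in CDX2-undetected and 1812 CPM (66.4 to 2813) in CDX2-detected cells. VIM, of the same list, went the other way, with means of 500 and 162 CPM. The part of these markers in the RPL26 difference was not tested. The gene passed the size rule also without the 5 endothelial-marker cells and without the 4 cells rich in mitochondrial reads.

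The row of its paralog did not follow. RPL26L1 had 931 ± 292 CPM in CDX2-detected and 823 ± 217 CPM in CDX2-undetected cells, a ratio of 1.13. With both rows summed no member passed. Most reads of the sum are from RPL26L1, so an RPL26 difference of this size could not lift it past the rule. RPL26L1 took 87.2 ± 6.60% of the pair's reads in the first and 93.9 ± 6.55% in the second. The call was also lost when detection of CDX2 and of the ectoderm markers was set at 50 CPM (28 against 47 cells). That setting left 14 cells in the ectoderm state, so cells placed there at 10 CPM entered this comparison. CDX2-detected cells had more genes with a read (5815 against 5205 on average), and RPL26 was detected in 90.9% of cells with more genes and 66.7% of cells with fewer, so the part of library complexity in the difference was not tested.

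Of members that did not pass, RPL39 had 1551 ± 595 against 1227 ± 494 CPM (1.26) and RPL5 1943 ± 466 against 1547 ± 410 CPM (1.26). Both were above 1 within each prefix. RPL38 had a ratio of 1.003 (819 ± 294 against 816 ± 270 CPM).

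Cells were last divided at the median number of genes with a read, 44 cells above it and 45 at or below it. Ribosomal protein genes took less of the reads in cells with more genes, 6.35 ± 1.31% (lowest 3.30, median 6.24, highest 9.01%) against 7.03 ± 1.55% (4.42, 6.98 and 10.5%). The ratio was 0.904, with 0.900 within X09 and 0.864 within X29. Of the 44 cells, 29 lay below the median of the others and 4 below their range. Spearman's rho between the share and genes with a read was -0.244 over 89 cells, -0.331 within X09 and -0.192 within X29. These are descriptions over cells that share a pool. With every cell thinned to 300000 gene reads and the same groups kept, the ratio was again 0.904. Random thinning leaves a share unchanged on average, and genes with a read were not recounted. The part of depth in this split was therefore not tested.

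Set against the added RNA, the direction turned. Cells with more genes had 1.72 ± 0.655 ribosomal protein reads per Spike read and the others 0.906 ± 0.395, a ratio of 1.90 (2.12 within X09, 1.61 within X29). All gene reads per Spike read differed by more, 28.2 ± 11.6 against 13.3 ± 6.37, a ratio of 2.12. Cells with more genes thus had more ribosomal protein reads for the same added RNA, but a smaller part of their reads. The labels do not say how much Spike RNA went into each cell, and RNA content and capture efficiency cannot be told apart. Mitochondrial reads took 5.44% in cells with more genes and 8.91% in the others. With mitochondrially encoded genes left out of the total, the ratio of shares was 0.871.

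Of the 68 members, 0 were higher in CPM in cells with more genes, beside 14.1% of all rows, and 1 was higher in cells with fewer genes, beside 8% of rows. Among rows with a mean of 100 CPM or more the shares were 6.02 and 2.02%. The median ratio was 0.898 over members and 1.04 over all rows, and 66 members were below 1, 59 of them within both prefixes. Per Spike read, 67 of the 68 were higher in cells with more genes, beside 78.7% of all rows, with a median ratio of 1.89 against 2.18.

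The member that passed was RPS27L, with 63.2 ± 45.2 CPM in cells with more genes (lowest 0, median 58.6, highest 169) and 99.9 ± 89.01 CPM in cells with fewer (0, 85.5 and 386). The ratio was 0.636, with 0.689 within X09 and 0.425 within X29. The ranges overlapped, and detection went the other way, in 90.9% of the first and 80% of the second. Leaving out a single cell could end the call, as did leaving out the 5 endothelial-marker cells. Among members of special role, RPLP2 had a ratio of 0.784 (846 ± 235 against 1080 ± 326 CPM), RPL38 0.830 (726 ± 201 against 874 ± 296 CPM) and RPL5 1.01 (1764 ± 442 against 1754 ± 542 CPM).

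**Figure D4:**
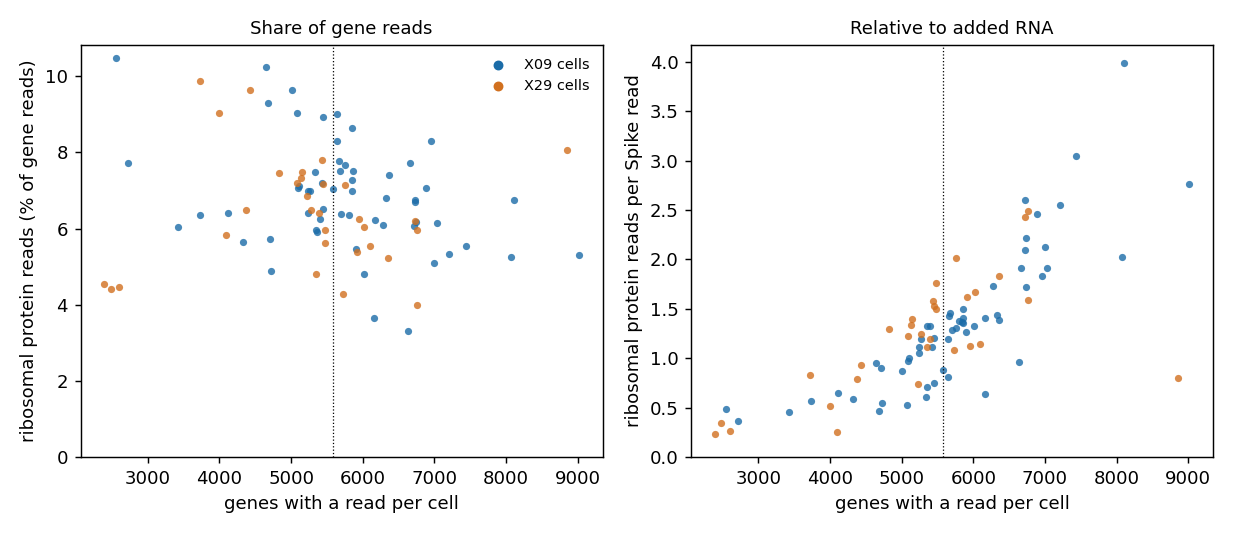
Each point is 1 cell, X09 in blue and X29 in orange, with genes with a read on the horizontal axes and the median as a dotted line. The left panel shows ribosomal protein reads as % of gene reads (rho -0.244) and the right panel ribosomal protein reads per Spike read (rho 0.809), which climb from left to right.

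Among all pairs of members, RPS6 and RPL17 were the most alike, with rho 0.877 over 89 cells. RPS6 is the small-subunit target of the S6 kinases. It had 1715 ± 812 CPM (lowest 446, median 1514, highest 4691) and RPL17, of the exit tunnel, 730 ± 343 CPM (119, 698 and 1665). The other genes most like RPS6 were TXN (0.763), COX7C (0.761) and chPKCI (0.700), and those most like RPL17 were COX7C (0.790), TXN (0.722) and ATP5ME (0.708). In the chicken RPS6, RPL17 and RPL37, and of these other genes TXN, COX7C and chPKCI, are known to lie on the Z chromosome. Males carry a pair of Z chromosomes, while females carry a single Z and a W. Chromosome positions were not part of the data used here, and that of ATP5ME was not checked.

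SPIN1W, a gene named for the W chromosome, was detected in 15 of the 89 cells (9 X09, 6 X29), 4 of them in the ectoderm state. This split was chosen after the values of RPS6 and RPL17 were seen. A cell without SPIN1W reads may still carry the gene. RPS6 had 1153 ± 331 CPM in cells with SPIN1W detected (lowest 623, median 1147, highest 1906) and 1829 ± 834 CPM in the other 74 (446, 1872 and 4691). It was 1.59-fold higher in SPIN1W-undetected cells with the same direction in both prefixes, and 35 of the 74 lay above every SPIN1W-detected cell. RPL17 had 522 ± 176 against 772 ± 353 CPM, which is 1.48-fold and short of the rule. The RPL17 ratio of SPIN1W-detected to SPIN1W-undetected cells was 0.559 within X09 but 0.914 within X29. RPL37 had 1052 ± 230 against 1235 ± 363 CPM (1.17-fold). TXN, COX7C and chPKCI, picked for their rho with RPS6 and RPL17 over these same cells, were 1.52-fold, 1.34-fold and 1.57-fold higher in SPIN1W-undetected cells. COX7C did not pass the rule. As ratios of SPIN1W-detected to SPIN1W-undetected cells, X09 and X29 gave 0.533 and 0.924 for TXN. They gave 0.600 and 1.08 for COX7C, and 0.647 and 0.658 for chPKCI. ATP5ME was not compared.

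RPS6 was the single member of 68 higher in SPIN1W-undetected cells, beside 16.8% of all rows, and 0 were higher in SPIN1W-detected cells, beside 9.27%. Leaving RPS6 and RPL17 aside, the other 66 members had ratios of SPIN1W-undetected to SPIN1W-detected cells from 0.780 (RPL26) to 1.40 (RPS27L). The share of reads on all members was 6.77 ± 1.34% in SPIN1W-detected and 6.68 ± 1.502% in SPIN1W-undetected cells. The labels give no sex of embryo or cell, so what sets the spread of RPS6 and RPL17 was not tested.

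**Figure D5:**
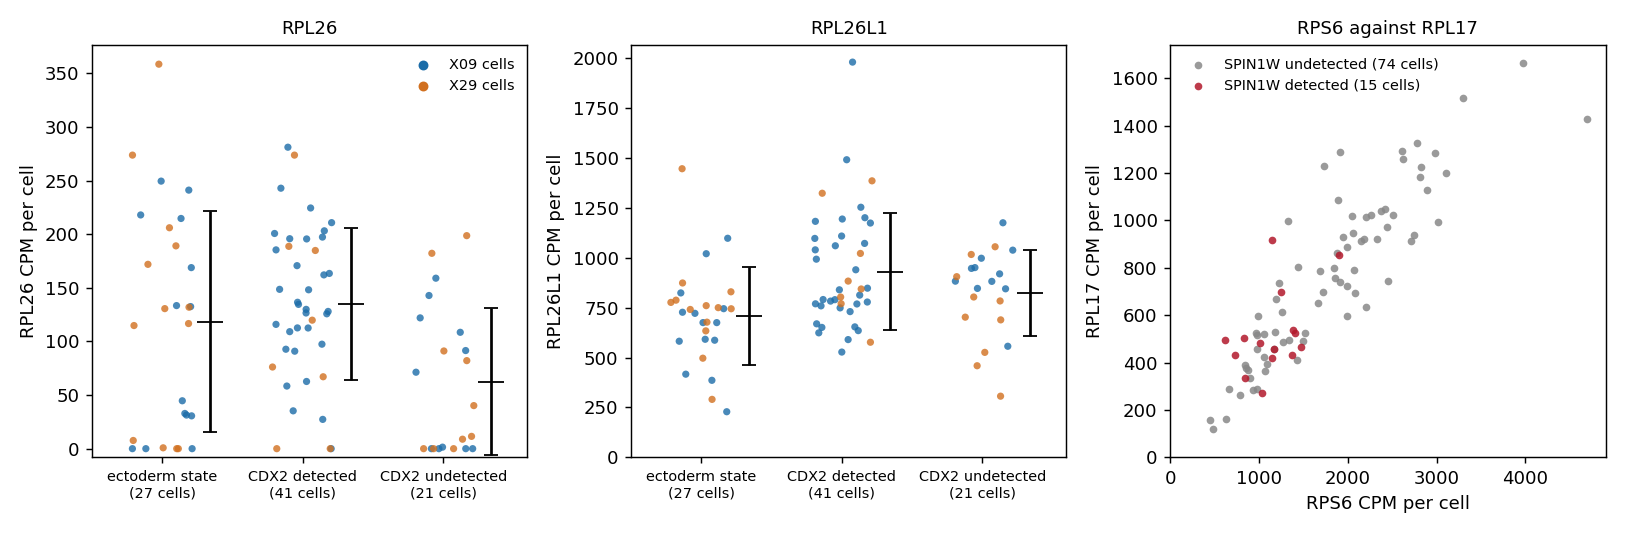
The left and middle panels plot CPM of RPL26 and of its paralog RPL26L1 in each cell by state, X09 in blue, X29 in orange, with mean ± SD over cells in black; several CDX2-undetected cells have RPL26 at or near 0, while RPL26L1 is above 0 in every cell. The right panel plots RPL17 against RPS6 (CPM), with the 15 SPIN1W-detected cells in red, which reach 1906 CPM of RPS6 where others reach 4691.

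Other genes of the translation machinery were described from lists. Of the mRNAs known in mammals for a pyrimidine tract at the start, mostly translation factors, 24 of 26 were in the table, and their summed share of reads (1.497 ± 0.295%) had rho 0.810 with the ribosomal protein share. FAU is on this list, and its genes share cell totals with the members. EEF1A1 (4134 ± 1150 CPM), EEF1B2 (1143 ± 400) and EEF2 (1128 ± 574), elongation factors, led it. By the size rule 1 of the 24 was higher in ectoderm-state cells and 0 in others, beside 15.5 and 18.5% of all rows (IPO5, a nuclear import receptor, 1.62-fold). In CDX2-undetected cells 2 were higher, beside 16.8%, and 0 in CDX2-detected cells, beside 14.5%. They were VIM, the mesenchymal intermediate filament protein (500 against 162 CPM), and EIF3H (411 against 237 CPM), an initiation factor subunit. In cells with fewer genes 1 was higher, EIF4B (15.0 against 7.40 CPM), beside 8%, and 0 in cells with more, beside 14.1%. These counts were below the shares over all rows. Among rows with a mean of 100 CPM or more, the shares were 7.26% for CDX2-undetected cells and 2.02% for cells with fewer genes. The counts of the list in those cells were above these shares, and the list holds genes on both sides of 100 CPM.

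Ribosome biogenesis genes, which make and assemble rRNA in the nucleolus, took 0.971 ± 0.196% of reads, with rho 0.331 against the ribosomal protein share (0.167 within X09 and 0.510 within X29). NPM1 (2923 ± 942 CPM), NCL (1018 ± 404) and NOP58 (396 ± 260) were their highest. Of 48 with a mean of 10 CPM or more, 8 were higher in cells outside the ectoderm state and 1 within it, beside the backgrounds of 18.5 and 15.5%. NOP58, a box C/D particle core protein, had 442 against 291 CPM, and NHP2, of the H/ACA particle, 79.5 against 42.5 CPM. TAF1B, of the RNA polymerase I machinery, went the other way with 159 against 46.4 CPM in ectoderm-state cells. By CDX2 3 were higher in detected and 6 in undetected cells, beside 14.5 and 16.8% of all rows, among them UTP6 (177 against 73.98 CPM) in the first and UTP15 (242 against 108 CPM) in the second. In cells with more genes 4 were higher and in cells with fewer 2, beside 14.1 and 8%. All 6 counts for the 48 genes were below the shares over all rows. Among rows with a mean of 100 CPM or more, the shares were 10.1% for cells outside the ectoderm state and 7.26% for CDX2-undetected cells. For cells with more and fewer genes they were 6.02 and 2.02%, and the counts of the list in all these groups were above them. The counts in ectoderm-state and CDX2-detected cells stayed below, beside 8.20 and 8.64%.

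Regulators of ribosome synthesis and of its p53 checkpoint had rho 0.0320 with the share as a sum, and 16 had a mean of 10 CPM or more. Of them 2 were higher in ectoderm-state cells, MDM2 (118 against 52.1 CPM) and GADD45A (133 against 63.5 CPM), and 2 in other cells, RPTOR, of the growth kinase complex mTORC1 (19.5 against 9.99 CPM), and MYC, an activator of ribosome genes (60.3 against 32.9 CPM). These counts of 16 were below the 15.5 and 18.5% of all rows. By CDX2 3 of the 16 were higher in detected and 2 in undetected cells, beside 14.5 and 16.8% of all rows. MYC was among the 2 (89.2 against 45.5 CPM). In cells with more genes 1 was higher and in cells with fewer 4, beside 14.1 and 8%. The counts of 3 and 4 were above the shares over all rows. Among the 4 were MTOR and RPS6KA3, each detected in 21.3% of cells. Beside rows with a mean of 100 CPM or more, whose shares ran from 2.02 to 10.1%, every count of this list was above its share. MDM2, GADD45A, RPTOR, MYC, MTOR and RPS6KA3 themselves had means below 100 CPM. The cap-binding factor EIF4E (371 ± 222 CPM) and its inhibitor EIF4EBP1 (926 ± 352 CPM) passed in none of the 3 comparisons.

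Mitochondrial ribosomal proteins, which serve the separate ribosome of mitochondria, took 0.978 ± 0.171% of reads with rho 0.591 against the cytoplasmic share. Of 68 with a mean of 10 CPM or more, 3 were higher in ectoderm-state and 4 in other cells, beside 15.5 and 18.5% of all rows. By CDX2 5 were higher in detected and 1 in undetected cells, beside 14.5 and 16.8%, and by genes with a read 0 in cells with more and 2 in cells with fewer, beside 14.1 and 8%. All 6 counts were below the shares over all rows. Among rows with a mean of 100 CPM or more, the count of 2 in cells with fewer genes was above the share of 2.02%. The other counts were below theirs. MRPL35 (387 ± 194 CPM), MRPL27 (280 ± 141) and MRPL23 (270 ± 131) had the highest levels. MRPS18A (192 against 80.5 CPM) and MRPS27 (141 against 61.4 CPM) were higher in CDX2-detected cells. The 13 mitochondrially encoded genes had rho 0.116 with the ribosomal protein share, 0.376 within X09 and -0.248 within X29, and 10 of them were higher in cells with fewer genes, beside 8% of all rows.

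Proliferation genes as a sum had rho -0.136 with the ribosomal protein share. Of 14, 13 were higher in cells with more genes, beside 14.1% of all rows, among them TOP2A (382 against 179 CPM) and CDK1 (1412 against 876 CPM), both needed for cell division, whereas the members' median ratio there was 0.898. By CDX2 5 of the 14 were higher in detected cells, above the 14.5% of all rows, and 0 in undetected cells, beside 16.8%. In ectoderm-state cells 0 were higher and in other cells 2, beside 15.5 and 18.5%. The part of proliferation in the RPL26 difference was not tested. Dissociation stress genes had rho -0.340 with the share (-0.431 within X09, -0.169 within X29). Of 11, 6 were higher in ectoderm-state cells, beside 15.5% of all rows, and 0 in other cells, beside 18.5%. Among the 6 were the immediate early gene FOS (321 against 76.1 CPM) and HSPA2 (1706 against 801 CPM). HSP90AA1, a chaperone and the highest gene of the list, was lower in ectoderm-state cells (4437 against 5760 CPM) without passing the rule. Summed, the list had a ratio of 1.08. The part of these genes in the lower ribosomal protein share of ectoderm-state cells was not tested.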

How the data were processed

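Per the labels' protocols, each cell was isolated and photographed on a Fluidigm C1 array. Its cDNA was amplified with SMARTer v4 chemistry, made into a Nextera XT library and sequenced from both ends on a HiSeq instrument. The authors deposited raw counts of reads per gene. The submitters' processing notes name HISAT2 2.1.0, the GRCg6a build and featureCounts, without settings.

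CPM was computed over gene rows without the Spike rows, which took 5.99% of all reads. Shares, evenness, ratios and Spearman's rho were computed with Python 3.11.15, pandas 2.3.3 and SciPy 1.17.1. No pair of cells had identical counts, and no doublet caller was run. The size rule was tested on simulated data. Backgrounds used rows with a mean of 10 CPM or more. Of the members, 65 matched a RefSeq symbol and 3 a synonym, while RPS19 matched none.

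Members, lists and comparisons were chosen with earlier results of these data known. The text names the members with the highest and lowest levels and variation, paralogs, those past the size rule, and a list of proteins with known roles. RPL12, RPS28, RPL37, RPL26L1 and RPL17 in comparisons and the SPIN1W split were chosen after their values were seen, as were TXN, COX7C, chPKCI and ATP5ME. Precision is limited by the single pool and the spread between cells, and for rows with few reads also by counting of amplified reads. Some genes that these rules name are counted but not reported by name here, and the plot of member levels leaves 1 of the 69 out.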

Additional observations from a re-analysis of the deposited data

How the results depend on the processing

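The median share of reads and the median evenness moved by less than 1 SD over cells under every alternative tried. These included each prefix alone, thinning to 300000 reads and leaving out the 5 highest members. The SD between single cells is a wide limit for a median, so this rule could miss real shifts. Without the 5 highest members the median share fell from 6.49 to 5.46%. Random thinning leaves a share unchanged on average. The ectoderm-state ratio stayed below 1 under every alternative listed, from 0.832 (X09 alone) to 0.988 (X29 alone). Per Spike read it was 0.903 over both prefixes, but 0.723 within X09 and 1.28 within X29, so the prefixes did not share a direction. Leaving out single cells moved the ectoderm-state ratio of shares between 0.866 and 0.902. It moved the CDX2 ratio between 1.03 and 1.08 and the ratio by genes with a read between 0.895 and 0.914. The CDX2 ratio turned to 0.986 in X09 alone, and the ratio by genes with a read turned to 1.90 per Spike read.

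Counts of members past the size rule were small and moved as follows. In cells outside the ectoderm state 1 (RPL12) was higher without the 9 cells with the fewest genes with a read, 2 (RPS27L and RPS28) with detection at 50 CPM, and 0 to 1 on leaving out single cells. In CDX2-detected cells RPL26 was lost with detection of CDX2 and the ectoderm markers at 50 CPM (0). It was also lost when summed with RPL26L1 (0), which holds most reads of that sum. In cells with more genes 1 (RPL26) was higher on mean log2(CPM + 1), where 61.8% of all rows were, and 67 per Spike read. In cells with fewer genes RPS27L was lost (0) at a fold of 2, on mean log2(CPM + 1), as a share of ribosomal protein reads, per Spike read and without the 5 endothelial-marker cells. It was below the filter at a mean of 100 CPM (0), and the count was 0 to 1 on leaving out single cells. The alternatives per Spike read for counts, those without mitochondria-rich or endothelial-marker cells for counts, without mitochondria-rich cells for shares, without RPS26 and with RPL26 and RPL26L1 summed were added after seeing the data. No paired analysis was possible because all cells belong to 1 group. With 1 pooled sample the spread between embryos is unknown, and the rows with the fewest reads were RPS26 (101), RPS27L (10034) and RPL26 (14928). With cells thinned to 300000 reads and the groups kept as before thinning, RPL26 and RPS27L passed as before. Random thinning leaves mean CPM unchanged on average, so the part of depth in these calls was not tested.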
